A study of Caenorhabditis elegans with 12 samples.

Results

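Body wall muscle moves the nematode Caenorhabditis elegans, and its contractile apparatus is assembled before hatching. In each sarcomere, myosin thick filaments are held at the M-line and actin thin filaments at the dense bodies. Both structures are built on integrin, which ties the sarcomere through the cell membrane to the basement membrane. Calcium that enters through a voltage-gated channel and leaves the sarcoplasmic reticulum through the ryanodine receptor acts on troponin and lets the filaments slide. The 31 genes described here encode these proteins, together with the myogenic transcription factor. They were chosen by name for that role. Each was located through the identifier that carries its symbol in the WBcel235 annotation. They are 31 of the 46904 genes in the deposited table. All 31 had reads in all 12 libraries, and all 31 were among the 14640 genes that passed a filter of at least 10 normalised counts in at least 2 libraries.

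Messenger RNA of late-stage embryos was sequenced in 6 genotypes, with 2 libraries per genotype. The wild type is N2. The hpl-2 gene encodes a heterochromatin protein of the HP1 family that binds histone H3 methylated at lysine 9, and it was mutated in hpl-2, changed at 1 residue in hpl-2 I158A and combined with a lin-61 mutation in lin-61 hpl-2. LIN-61, a protein with MBT repeats that binds the same mark, was mutated alone in lin-61, and genes of H3K9 methyltransferases were mutated together in met-2 set-25 set-32. The last strain is called the triple mutant here, and lin-61 hpl-2 the double mutant. The sources used here name no allele other than I158A, and all genotypes were collected and prepared by 1 protocol. The comparisons ask whether muscle messenger RNA levels change when proteins that read or write this mark are mutated. Nothing in the labels says that the 2 libraries of a genotype came from separate cultures, so the p-values measure the spread between these libraries, which may be technical. Whole embryos were extracted, so fewer muscle cells, less RNA per muscle cell and a change in any other tissue that expresses a gene cannot be told apart.

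Between 1593546 and 2533102 reads were assigned to genes in 11 of the libraries, and 10243076 in triple mutant replicate 2. The muscle genes took 0.567% to 0.930% of these reads. In the strains labelled as mutant, the messenger RNA of the mutated genes was low: hpl-2 stood at 30.9 to 49.8 normalised counts in the 4 libraries of hpl-2 and the double mutant and at 234 to 337 in the other 8. lin-61 stood at 5.45 to 13.6 in lin-61 and the double mutant and at 41.4 to 124 elsewhere. In the triple mutant both libraries were below the other 10 for met-2, set-25 and set-32. Triple mutant replicate 2 differed from its partner by more than other pairs did. The median absolute difference over all tested genes was 0.88 on the log2(value + 1) scale, against 0.22 to 0.42 in the other genotypes. Beyond its count of assigned reads, this library differed in the make-up of those reads. Mitochondrial genes took 1.62% of its reads and 0.0807% to 0.446% elsewhere. Non-coding genes took 3.20% of its reads and 14.5% to 17.5% elsewhere. Outside that library, the mitochondrial share was 0.314% to 0.446% in both libraries of N2 and the double mutant and in hpl-2 replicate 1. It was 0.0807% to 0.109% in hpl-2 replicate 2, triple mutant replicate 1 and both libraries of hpl-2 I158A and lin-61. hpl-2 I158A against N2, lin-61 against N2 and the double mutant against lin-61 thus each compare libraries of unlike share. Because all 12 libraries share 1 estimate of the spread, the difference within the triple mutant pair enters the test of every comparison. Counts of the 31 genes that passed are therefore given with and without triple mutant replicate 2.

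Among the thick filament and M-line genes, levels are given as the lowest and highest normalised count over the 12 libraries, and as the median normalised count per kilobase of exon where genes are compared. The sources used here do not give the strand setting of the counting. Whether the levels and ranks of the 31 genes count reads of the gene's own strand alone is therefore not known. Outside triple mutant replicate 2, a 21 bp feature opposite deb-1 was counted 2.35 to 3.74 times as often as deb-1. In that library it was counted 0.403 times as often. The levels and ranks are those of the deposited counts and may not follow messenger RNA amounts. unc-54, the major body wall myosin heavy chain, ranged from 1296 to 2840.4 normalised counts (median 295 per kilobase). myo-3, the myosin heavy chain at the centre of the filament, ranged from 864 to 1659 (210.3 per kilobase). unc-15, paramyosin of the filament core, ranged from 444 to 937 (207 per kilobase). The myosin chaperone gene unc-45 ranged from 260.1 to 487 (103.6 per kilobase). Twitchin, a giant protein of the thick filament encoded by unc-22, had counts of 275 to 998 (27.9 per kilobase), and unc-89, which encodes the obscurin-like protein of the M-line, 801 to 1933 (48.6 per kilobase). The M-line protein genes unc-96 and unc-98 were the sparsest, at 30.6 to 97.6 and 24.7 to 53.2 normalised counts (39.1 and 30.8 per kilobase), and unc-98 had only 18 reads in its lowest library. The long genes unc-22 and unc-89 thus had many reads but a low level per kilobase.

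The thin filament genes act-4 and mup-2 had the highest levels per kilobase of the 31. act-4, an actin gene, had 1357 to 2737 normalised counts and a median of 1022 per kilobase, which ranked 203 among 18815 coding genes with a read. Its near-identical paralogs act-1, act-2 and act-3 can share reads with it, so its level is uncertain. mup-2, a troponin T gene, followed with 623 to 1037 (559.9 per kilobase, rank 350). tnt-3, a further troponin T gene, ranged from 308 to 552 (84.5 per kilobase). Troponin C, the calcium sensor encoded by pat-10, ranged from 145 to 386 (268 per kilobase), and troponin I, encoded by unc-27, from 60.7 to 123 (111 per kilobase). The tropomyosin gene lev-11 ranged from 261 to 609 (193 per kilobase). Of the regulators of actin turnover, unc-60, an actin depolymerising factor gene, ranged from 131 to 185 (210.4 per kilobase) and its cofactor unc-78 from 58.2 to 124 (40.7 per kilobase). The actin-bundling protein gene unc-87 ranged from 213 to 488 (162 per kilobase). The exons of unc-60 share 7.81% of their length with F53E2.2 on the same strand, and reads there could belong to either gene.

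In the dense body and attachment group, unc-52, the perlecan of the basement membrane, had the most normalised counts, 1364 to 3366 (172 per kilobase). The integrin chains differed: pat-3, the beta chain, ranged from 711 to 1129 (268 per kilobase) and pat-2, an alpha chain, from 153 to 538 (69.4 per kilobase). unc-112, the kindlin that binds integrin, ranged from 278 to 709 (181 per kilobase). Its partners form a complex at the integrin tail: pat-4, the integrin-linked kinase homolog, ranged from 147 to 266 (113 per kilobase), pat-6, parvin, from 91.4 to 185 (103.9 per kilobase) and unc-97, PINCH, from 90.2 to 199 (84.7 per kilobase). Vinculin, encoded by deb-1, ranged from 285 to 595 (126 per kilobase). Alpha-actinin, encoded by atn-1, was lower per kilobase at 34.9 (81.5 to 151 normalised counts). The LIM domain protein gene unc-95 ranged from 132 to 220.3 (142 per kilobase) and dim-1, which encodes an immunoglobulin-domain protein near dense bodies, from 195 to 374 (135 per kilobase).

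The excitation genes were low per kilobase. unc-68, the ryanodine receptor, ranged from 263 to 1393 normalised counts (46.3 per kilobase), and egl-19, the pore-forming subunit of the L-type calcium channel, from 56.8 to 205 (22.4 per kilobase, rank 7501 and the lowest of the 31). hlh-1, the MyoD homolog, ranged from 110.3 to 279.8 (169 per kilobase). The highest value of a gene exceeded its lowest by a factor of 5.30 for unc-68, 3.63 for unc-22, 3.61 for egl-19 and 3.52 for pat-2, the widest ranges of the 31 genes. The narrowest was 1.42, for unc-60. All 4 of the widest were lowest in a library of hpl-2 I158A.

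**Figure D1:**
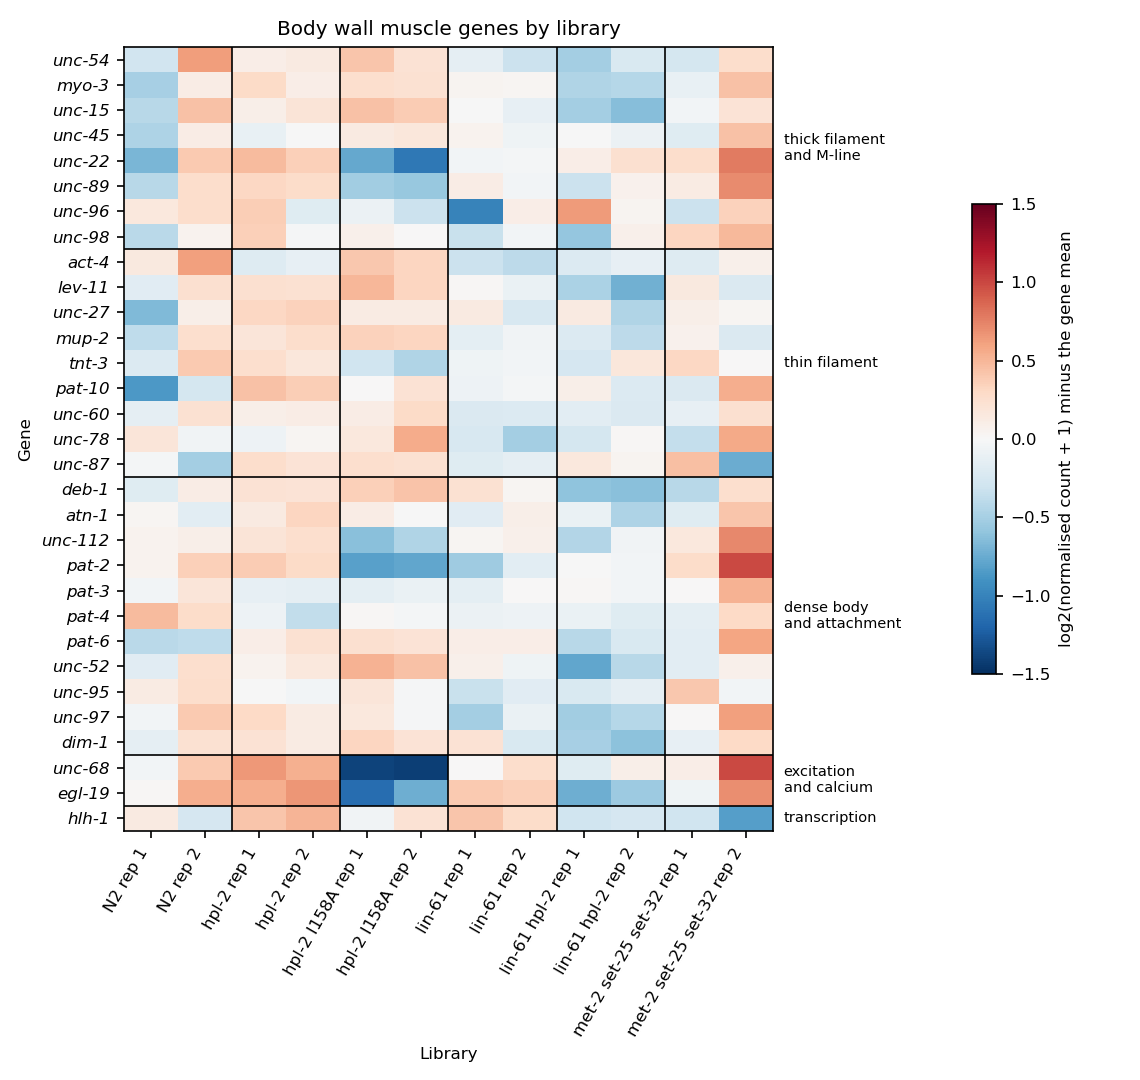
Each of the 31 body wall muscle genes (rows, grouped by role) in each of the 12 libraries (columns, grouped by genotype), as log2(normalised count + 1) minus the gene's mean over the libraries. unc-68, pat-2 and unc-22 are lowest in both hpl-2 I158A libraries and egl-19 is lowest in replicate 1, and most genes are below their mean in both double mutant libraries and in N2 replicate 1.

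The libraries of a genotype did not always have like summed counts of the muscle genes. The 31 genes summed to 14688 normalised counts in N2 replicate 1 and 20775 in N2 replicate 2. hpl-2 summed to 18765 and 18719, hpl-2 I158A to 18664 and 17922, lin-61 to 16226 and 15731, the double mutant to 13328 and 14455, and the triple mutant to 16238 and 20974. The 2 double mutant libraries were thus the lowest and the second lowest of the 12, and the wild type spanned nearly the whole range. In N2, 26 of 31 genes were higher in replicate 2, with a median difference of 0.42 on the log2(value + 1) scale against -0.03 over all tested genes. In the triple mutant, 24 of 31 were higher in replicate 2 (median 0.52, all genes 0.07). In the other 4 genotypes the median difference lay between -0.04 and 0.03. Other lists differed between the N2 libraries to unlike degrees. The widest relative gaps were in 10 pharynx genes, which summed to 1187 and 2068, and 10 intestine genes, at 869 and 1706. The sums were 3718 and 4282 for 10 epidermis genes, 555 and 639 for 10 neuron genes and 1829 and 2198 for 10 germline genes. A wider set of 72 muscle genes summed to 43059 and 46405. Each comparison with N2 is therefore the comparison of a tight mutant pair, or the loose triple mutant pair, with a loose wild-type pair.

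Most of the 31 genes varied together across the libraries. The Pearson correlation of a gene's log2 value with the mean of the other 30 over the 12 libraries was highest for unc-97 (0.872) and myo-3 (0.803) and lowest for unc-87 (-0.451) and hlh-1 (-0.163). These points share library depth and scaling, and the values are a description. unc-87 was low in triple mutant replicate 2, at 213, where the sum of the 31 was highest. hlh-1 was also lowest there, at 110.3.

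The I158A mutant was compared with hpl-2, in which the gene's messenger RNA is low, and with N2. Against hpl-2, 4 of the 31 genes fell and none rose: the calcium channel genes unc-68 and egl-19, the alpha integrin gene pat-2 and the twitchin gene unc-22. That is 12.9% of the genes, where 7.84% of all tested genes passed in this comparison and 4.25% were called lower (limma on log2(value + 1), Benjamini-Hochberg adjusted p under 0.05 over 14640 genes). Against N2, unc-68 and egl-19 fell and none rose, 6.45% of the 31, where 4.003% of all tested genes passed and 3.09% were called lower. The median log2 fold change of the 31 was 0.01 against hpl-2 and 0.15 against N2, beside -0.05 and 0.03 over all tested genes, so the median of the 31 was not below that of other genes. With 31 genes these shares are near the background, and the fall is described for the 4 genes and not for the list.

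unc-68 (WBGene00006801; V, 6901681 to 6929038 on WBcel235, minus strand) had normalised counts of 685 and 920.0 for N2, 1104 and 1021 for hpl-2, 267 and 263 for hpl-2 I158A, 703 and 846 for lin-61, 620.2 and 747 for the double mutant and 754 and 1393 for the triple mutant. Both hpl-2 I158A libraries were below all 10 others, by a wide margin, and differed from each other by less than any other pair of the gene. The gene fell to 25% of its level in hpl-2 (log2 fold change -2.0, SE 0.27, limma adjusted p = 0.00934) and to 33.4% of N2 (log2 fold change -1.58, SE 0.27, limma adjusted p = 0.0142). Over all 6 genotypes its limma adjusted p was 0.0129. The genotype means ran from 1074 in the triple mutant and 1062 in hpl-2 through 803 in N2, 774 in lin-61 and 683 in the double mutant to 265 in hpl-2 I158A. Neighbours in this order overlapped, except hpl-2 with N2 and the double mutant with hpl-2 I158A.

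egl-19 (WBGene00001187; IV, 7405582 to 7418740, plus strand) stood at 128 and 184 for N2, 185 and 201 for hpl-2, 56.8 and 75.4 for hpl-2 I158A, 166 and 162 for lin-61, 75.4 and 86.0 for the double mutant and 121 and 205 for the triple mutant. The 2 hpl-2 I158A libraries and the 2 double mutant libraries were the 4 lowest and interleaved only at 1 point, 75.4 in hpl-2 I158A replicate 2 and in double mutant replicate 1. The fall was to 34.3% of hpl-2 (log2 fold change -1.54, SE 0.30, limma adjusted p = 0.0184) and to 43.1% of N2 (log2 fold change -1.22, SE 0.30, limma adjusted p = 0.0476). The second of these lies close to the threshold.

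pat-2 (WBGene00003929; III, 8818899 to 8825266, plus strand) stood at 282 and 346 for N2, 352 and 329 for hpl-2, 153 and 157.9 for hpl-2 I158A, 187 and 243 for lin-61, 269 and 262 for the double mutant and 328 and 538 for the triple mutant. It was lowest in both hpl-2 I158A libraries, next lowest in both lin-61 libraries, and the highest in triple mutant replicate 2. pat-2 fell to 45.8% of hpl-2 (log2 fold change -1.13, SE 0.25, limma adjusted p = 0.0273), while against N2 it stood just above the threshold (log2 fold change -1.0, limma adjusted p = 0.0517). The beta chain pat-3 did not pass in either comparison, with values of 711 and 732 in hpl-2 I158A beside 723 and 714 in hpl-2 (log2 fold change 0.01, limma adjusted p = 0.991).

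unc-22 (WBGene00006759; IV, 11972697 to 12011007, minus strand) stood at 359.8 and 764 for N2, 804 and 741 for hpl-2, 339 and 275 for hpl-2 I158A, 566 and 567 for lin-61, 619 and 683 for the double mutant and 697 and 998 for the triple mutant. The hpl-2 I158A values lay below all others, but N2 replicate 1 was close to them and far below N2 replicate 2. unc-22 fell to 39.6% of hpl-2 (log2 fold change -1.33, SE 0.31, limma adjusted p = 0.0311) and did not pass against N2 (log2 fold change -0.78, limma adjusted p = 0.193). Over all 6 genotypes egl-19 and pat-2 passed with unc-68 (limma adjusted p = 0.0326 and 0.0384), 3 of 31 genes (9.68%) beside 6.92% of all tested genes, and unc-22 did not (0.0772). In this test 12 of the 31 had an unadjusted limma p under 0.05 (28.3% of all tested genes), and 18 passed (58.1%, beside 40.5%) without triple mutant replicate 2.

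**Figure D2:**
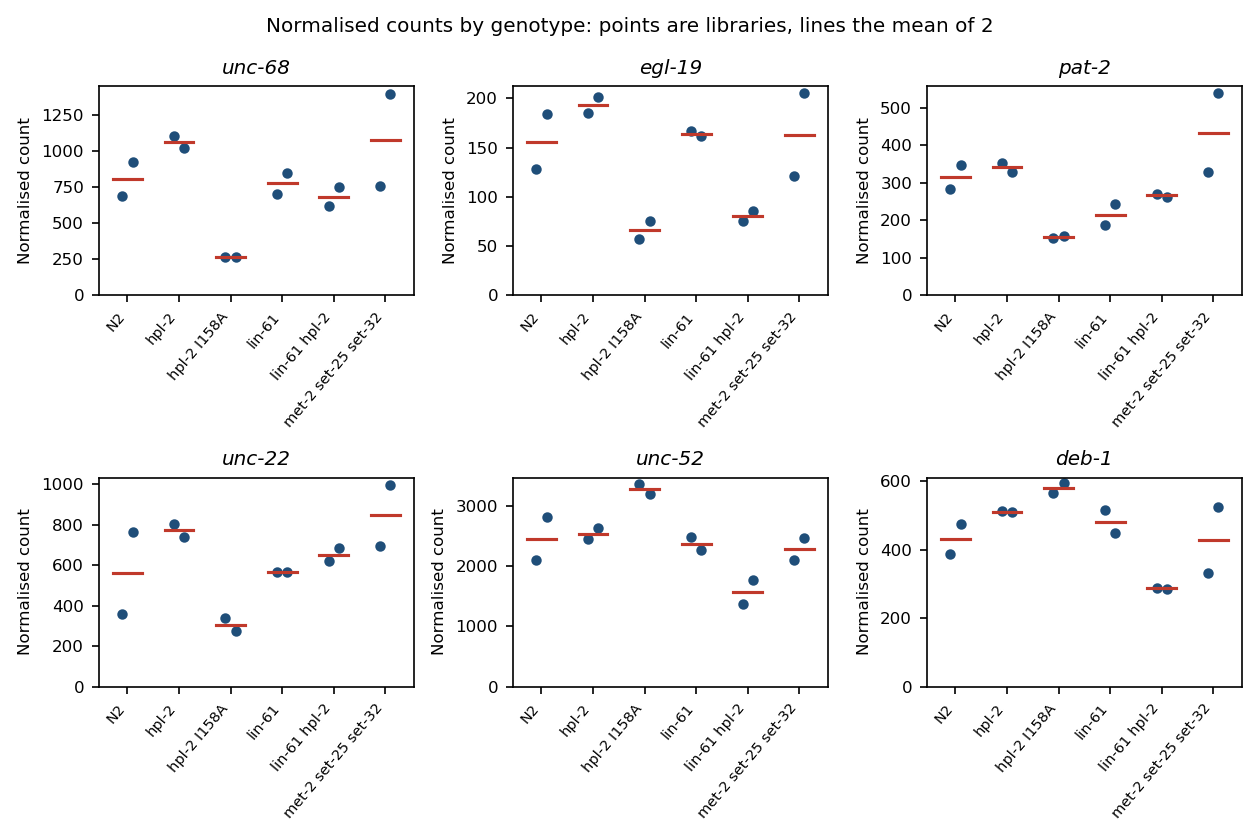
Normalised counts of 6 body wall muscle genes by genotype, with 1 point per library and a line at the mean of 2. unc-68, egl-19, pat-2 and unc-22 are low in hpl-2 I158A, where unc-52 and deb-1 are at their highest, and unc-52 and deb-1 are lowest in the double mutant.

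Other genes of the same structures lay on both sides of hpl-2 in hpl-2 I158A. Both libraries lay above both hpl-2 libraries for 11 of the 31 genes and below them for 11 (35.5% in each direction), beside 33.8% higher and 37.2% lower over all tested genes. unc-52 was higher in both libraries than in all 10 others, at 3366 and 3199 beside 2444 and 2630.2 in hpl-2, a difference that did not pass (log2 fold change 0.37, SE 0.20, limma adjusted p = 0.27). deb-1 was also highest there, at 565 and 595, and did not pass (log2 fold change 0.18, limma adjusted p = 0.66). The main myosin genes stood close to hpl-2, with log2 fold changes of 0.20 for unc-54 and 0.05 for myo-3. Against N2, both libraries were higher for 10 genes and lower for 10 (32.3% each), beside 29.5% and 28.8% of all tested genes.

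Without triple mutant replicate 2, 8 of the 31 genes passed against hpl-2, 25.8% beside 30.1% of all tested genes, so the share of muscle genes was then no higher than that of other genes. The 4 genes above were among them (unc-68 limma adjusted p = 2.44e-06, egl-19 0.000113, pat-2 0.000156, unc-22 0.000956). The others were unc-112 (-0.76, limma adjusted p = 0.00114), unc-89 (-0.84, limma adjusted p = 0.00318) and tnt-3 (-0.58, limma adjusted p = 0.0258), which fell, and act-4 (0.53, limma adjusted p = 0.00806), which rose. Against N2, 10 passed, 32.3% beside 22.2%: unc-68, egl-19, pat-2, unc-112 and unc-22 fell, and pat-6, pat-10, unc-87, deb-1 and unc-52 rose. Leaving out replicate 1 of that genotype instead gave the same counts of 8 and 10, beside 30.2% and 22.3%. With 1 of the 4 compared libraries left out, which leaves 1 arm with 1 library, no muscle gene passed in either comparison, while the log2 fold change of unc-68 against hpl-2 lay between -2.06 and -1.75 over all alternatives run. Without a lin-61 library 2 genes passed against hpl-2, and without a library of hpl-2, lin-61 or the double mutant only unc-68 passed against N2. With a term for libraries whose mitochondrial share exceeded 0.2%, 4 genes passed against hpl-2 (12.9%, beside 12% of all tested genes, 1720 of 14640) and none did against N2, beside 1.69% of all tested genes. Only the hpl-2 and triple mutant pairs are split by this term, so it was estimated within those pairs alone. Triple mutant replicate 2, at 1.62%, is among the libraries above the limit. The term therefore cannot separate mitochondrial share from the other differences of that library.

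In hpl-2 I158A the longest genes were lower as a class, and unc-22 and unc-68 are among them. Of the 11450 tested coding genes, 51 have at least 10000 bp of exon, and their median log2 fold change was -1.13 against hpl-2, with 52.9% called lower. The 169 genes of 6000 to 10000 bp had a median of -0.15 with 16.6% called lower, and the 3135 genes under 1000 bp had a median of 0.05 with 1.91% called lower. Against N2 the medians were -1.05, -0.22 and 0.22, with 43.1%, 17.8% and 0.829% called lower. Of the 31 muscle genes, 4 have at least 10000 bp of exon: unc-89 (25942 bp), unc-22 (23368 bp), unc-68 (16197 bp) and unc-52 (14253 bp). Their log2 fold changes against hpl-2 were -0.84, -1.33, -2.0 and 0.37, so unc-52 had the opposite sign. egl-19 (6465 bp) was below its length class, and unc-54 (6204 bp) and myo-3 (6104 bp) were not. pat-2 has 3972 bp of exon, in a class of 2753 genes whose median was 0.0049. Over the 31 genes, the Spearman correlation of log2 fold change with exon length was -0.206 against hpl-2 and -0.359 against N2, and over all 11450 coding genes -0.0468 and -0.209. Genes are not independent replicates here, and the part of transcript length in the 4 falls was not tested.

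**Figure D3:**
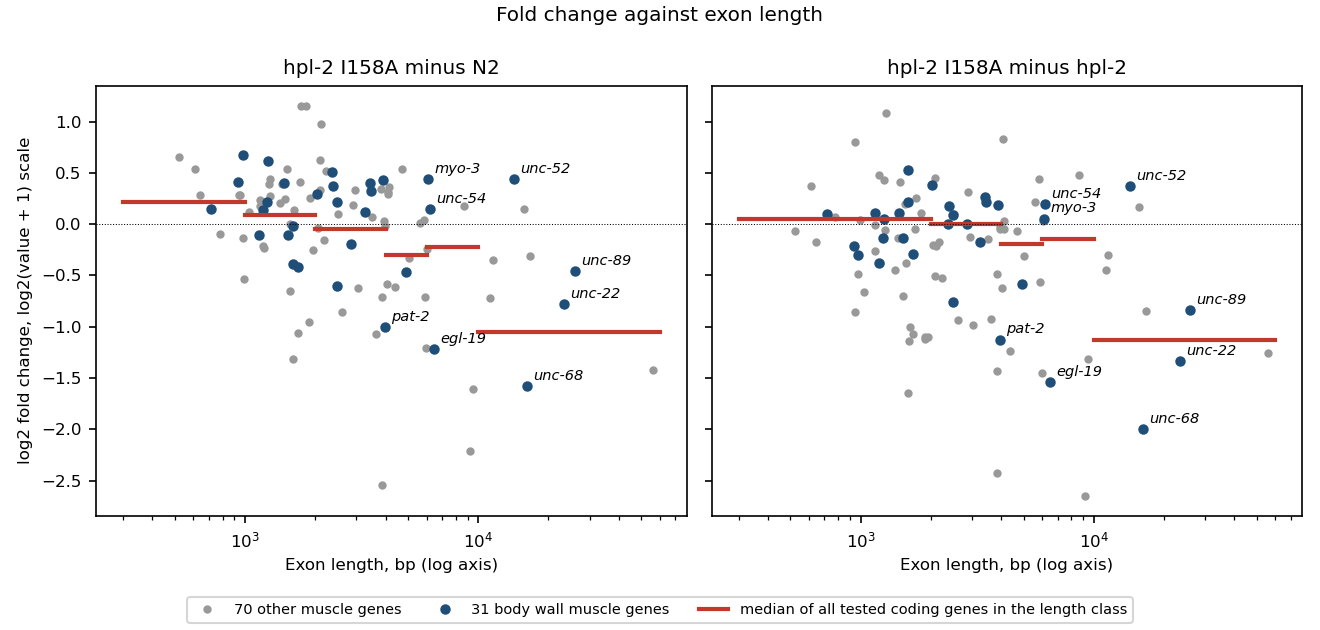
Log2 fold change of the body wall muscle genes (blue points) and of 70 other muscle genes (grey points) against exon length on a log axis, for hpl-2 I158A minus N2 (left) and minus hpl-2 (right). Red lines give the median of all tested coding genes in each length class. unc-68 lies below the median of its length class in both panels and unc-22 in the right one, while unc-52, unc-54 and myo-3 lie above 0 in both panels.

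Non-coding genes lie opposite some of these exons, and those opposite egl-19 and deb-1 had counts near or above those of the muscle gene in 11 libraries. The kit keeps strand, but the sources used here do not give the strand setting of the counting. 21ur-15006 is a 21 bp piRNA gene (IV, 7418000 to 7418020) that lies wholly opposite an exon of egl-19. Its normalised counts were 126 and 138 for N2, 181 and 174 for hpl-2, 78.03 and 81.5 for hpl-2 I158A, 152 and 148 for lin-61, 63.01 and 109.8 for the double mutant and 121 and 29.1 for the triple mutant, which is 0.748 to 1.37 times the count of egl-19 in 11 libraries and 0.142 times in triple mutant replicate 2, the library in which non-coding genes took 3.20% of the reads. C48A7.12, a non-coding gene of 219 bp with 17.8% of its length opposite egl-19 exons, was read 1.13 to 1.69 times as often as egl-19 in the 11 libraries. Both features were low in the same genotypes as egl-19: against hpl-2, 21ur-15006 was at -1.14 in hpl-2 I158A and -1.08 in the double mutant on the log2 scale, and C48A7.12 at -1.14 and -0.89, none of which passed (limma adjusted p = 0.19, 0.289, 0.282 and 0.476).

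A like feature lies opposite vinculin. 21ur-14731, also 21 bp (IV, 7094198 to 7094218) with 42.9% of its length opposite deb-1 exons, was read 776 to 1738 times per library on the normalised scale outside triple mutant replicate 2, more than deb-1 itself in each of those 11 libraries (2.35 to 3.74 times). In that replicate it was at 212, 0.403 times deb-1. ZK617.19, with 82% of its length opposite unc-22, was at 21.8 and 12.2 for N2, 23.8 and 34.5 for hpl-2, 3.85 and 4.08 for hpl-2 I158A, 17.4 and 12.7 for lin-61, 17.3 and 12.4 for the double mutant and 15.2 and 2.89 for the triple mutant, and fell in hpl-2 I158A against hpl-2 (log2 fold change -2.58, limma adjusted p = 0.0394). Of the 31 genes, 9 share exon bases with a gene on the other strand, none of them over more than 10% of its exons, with 7.71% for unc-87 as the highest. Which strand the reads of these muscle genes came from was not tested.

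**Figure D4:**
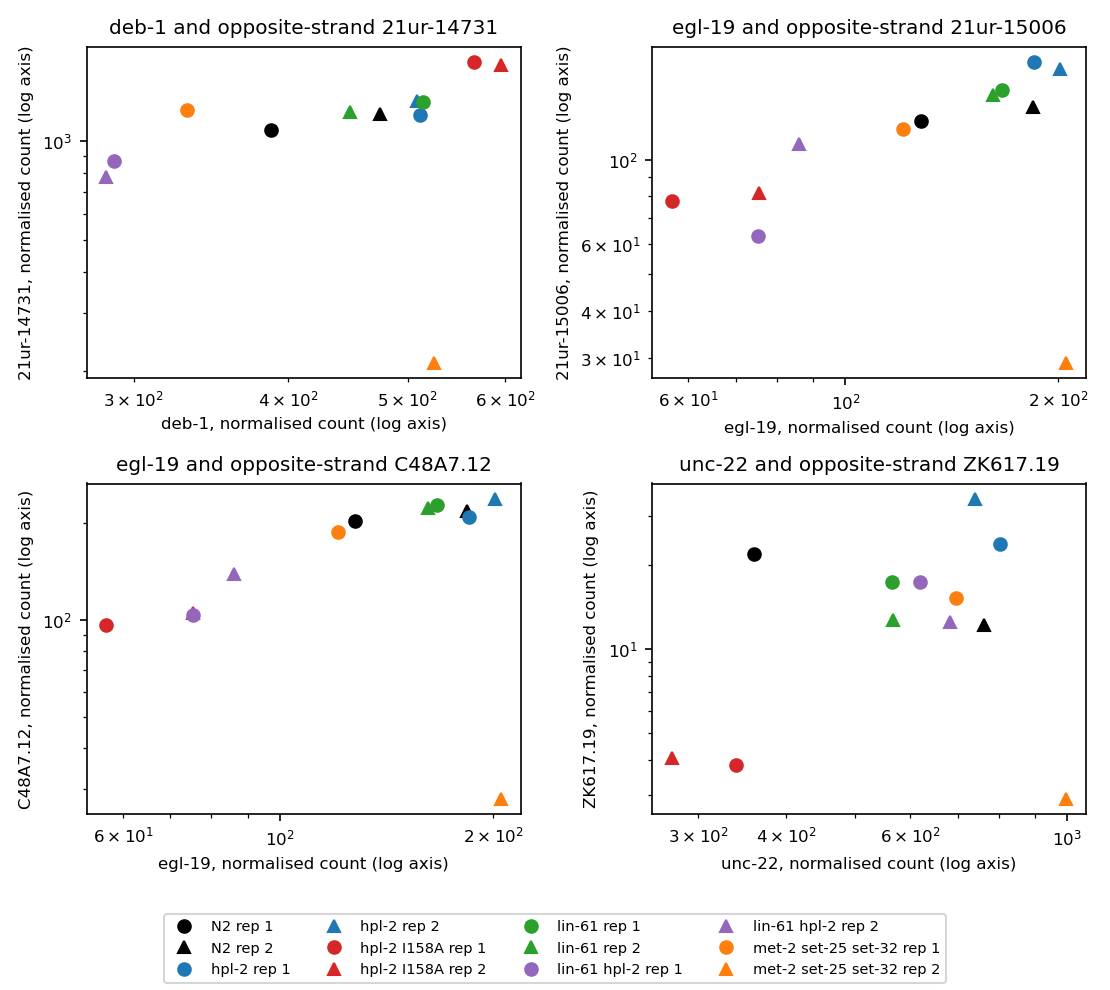
Normalised counts of 3 muscle genes (horizontal, log axis) and of the non-coding genes opposite their exons (vertical, log axis), with 1 point per library, coloured by genotype. In 11 libraries the features of deb-1 and egl-19 are high where the gene is high, and triple mutant replicate 2 (orange triangle) lies far below them.

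In the double mutant most of the muscle genes stood lower than in hpl-2, although none passed with all 12 libraries. For 23 of the 31 genes both double mutant libraries lay below both hpl-2 libraries (74.2%), beside 31.1% of all tested genes, and pat-3 alone lay above (3.23%, beside 33.1%). The log2 fold change was below 0 for 27 of 31, with a median of -0.47 beside 0.01 over all tested genes. By limma 0 of 31 passed (0.130% of all tested genes), 11 had an unadjusted p under 0.05 (18.5% of all tested genes), edgeR called 0 and DESeq2 called 2 (6.45%, beside 2.93% of all tested genes), lev-11 and egl-19.

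egl-19 had the smallest p, at 75.4 and 86.0 normalised counts in the double mutant and 185 and 201 in hpl-2 (log2 fold change -1.25, SE 0.30, limma adjusted p = 0.0828). lev-11, tropomyosin, stood at 385 and 509 for N2, 510.1 and 506 for hpl-2, 609 and 541 for hpl-2 I158A, 438 and 404 for lin-61, 311 and 261 for the double mutant and 479 and 371 for the triple mutant. Its 2 lowest values were those of the double mutant (log2 fold change -0.83, SE 0.21, limma adjusted p = 0.0947). deb-1 stood at 388 and 475 for N2, 512 and 509 for hpl-2, 565 and 595 for hpl-2 I158A, 515 and 449 for lin-61, 289 and 285 for the double mutant and 331 and 526 for the triple mutant. Here too both double mutant libraries were the lowest of the 12, with triple mutant replicate 1 next above them (log2 fold change -0.83, SE 0.23, limma adjusted p = 0.11).

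By role, the medians against hpl-2 were -0.43 for the 8 thick filament and M-line genes, -0.29 for the 9 thin filament genes, -0.49 for the 11 dense body and attachment genes and -0.94 for unc-68 and egl-19, and hlh-1 was at -0.74. All 9 thin filament genes were below 0, but act-4 was nearly level, at 1542 and 1639 normalised counts beside 1554 and 1632 in hpl-2. The genes that stood above 0 were unc-96 (0.25), pat-3 (0.12), pat-4 (0.09) and unc-45 (0.01). Without triple mutant replicate 2, 12 genes passed and all 12 were lower, 38.7% of the 31 beside 19.7% of all tested genes: deb-1 (limma adjusted p = 0.00134), egl-19 (0.00162), lev-11 (0.00255), unc-52, hlh-1, dim-1, unc-68, myo-3, unc-15, unc-97, unc-112 and mup-2 (limma adjusted p = 0.00489 to 0.0367 for the other 9). Leaving out replicate 1 of that genotype instead also gave 12, beside 19.8%. Neither library belongs to a genotype compared here, and the fold changes were the same with and without them.

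Lists of other tissues' genes also had medians below 0 in the double mutant, except the germline list. Against hpl-2, the median log2 fold change was -0.67 for 10 epidermis genes, -0.43 for 9 genes of the epidermal fibrous organelle that transmits muscle force, -0.44 for 10 pharynx muscle genes, -0.31 for 9 neuron genes and -0.28 for 9 intestine genes. It was 0.77 for 10 germline genes. All 10 germline genes were above 0, and for 7 the unadjusted limma p was under 0.05 (18.5% of all tested genes). The germline genes summed to 1736 and 1555 normalised counts in hpl-2, 2614 and 2978 in the double mutant and 3689 and 3892 in hpl-2 I158A, and none of the 10 was at 0 in all libraries. In hpl-2 I158A against hpl-2 the germline median was 1.05, with 6 of 10 called higher, beside 526 of all 14640 tested genes. The medians were -0.84 for neurons, -0.50 for pharynx muscle and 0.14 for both epidermis and intestine. The part of tissue or stage composition in the muscle values was not tested.

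Against lin-61 and N2 the double mutant also had more muscle genes below than above. Relative to lin-61, 0 of 31 genes passed (0.0273% of all tested genes), 6 had an unadjusted p under 0.05 (12.6% of all tested genes), and edgeR and DESeq2 called 0. Both double mutant libraries lay below both lin-61 libraries for 12 genes (38.7%, beside 28.8%) and above them for 4 (12.9%, beside 28.9%), and the median was -0.14. egl-19 (log2 fold change -1.02, limma adjusted p = 0.228), deb-1 (-0.74, limma adjusted p = 0.249) and unc-52 (-0.61, limma adjusted p = 0.271) had the smallest p. unc-52 stood at 2093 and 2809 for N2, 2444 and 2630.2 for hpl-2, 3366 and 3199 for hpl-2 I158A, 2485 and 2256 for lin-61, 1364 and 1763 for the double mutant and 2101 and 2471 for the triple mutant. Its double mutant libraries were the lowest 2 of the 12. Relative to N2, 0 of 31 passed (0.273%), 9 had an unadjusted p under 0.05 (9.54%), and edgeR and DESeq2 called 0. Both libraries were lower than N2 for 14 genes (45.2%, beside 22.1%) and higher for 2, pat-10 and unc-87 (6.45%, beside 22.1%), with a median of -0.23. unc-52 (-0.64, limma adjusted p = 0.299), egl-19 (-0.92, limma adjusted p = 0.331) and lev-11 (-0.63, limma adjusted p = 0.345) led. Without triple mutant replicate 2, 5 genes fell against lin-61 (16.1%, beside 9.49%), namely deb-1, egl-19, unc-52, hlh-1 and lev-11, and 5 against N2 (16.1%, beside 5.02%), namely unc-52, egl-19, deb-1, lev-11 and act-4. The comparisons of the double mutant share its 2 libraries, so they are not independent of each other.

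The interaction term compares the double mutant with the sum of the changes in the 2 single mutants on the log2 scale. Its estimate was below 0 for 24 of 31 genes, with a median of -0.45 beside -0.02 over all tested genes. By limma 0 passed (1.73% of all tested genes), 9 had an unadjusted p under 0.05 (18.5% of all tested genes), and edgeR and DESeq2 called 0. hlh-1 stood at 215 and 165 for N2, 261 and 279.8 for hpl-2, 189 and 228 for hpl-2 I158A, 261 and 238 for lin-61, 159 and 164 for the double mutant and 159 and 110.3 for the triple mutant, higher than N2 in both single mutants and lower than both single mutants in the double mutant (log2 estimate -1.14, SE 0.33, limma adjusted p = 0.108). The estimates were -1.35 for egl-19 (limma adjusted p = 0.125) and -0.99 for deb-1 (limma adjusted p = 0.134). The median moved with the N2 pair, to -0.20 without N2 replicate 1 and -0.65 without N2 replicate 2. Without triple mutant replicate 2, 9 genes passed, 29% beside 20.3% of all tested genes. deb-1, hlh-1, egl-19, pat-6, myo-3, pat-10, lev-11 and unc-52 were then below 0 and act-4 above. With a term for libraries whose mitochondrial share exceeded 0.2%, 0 of 31 passed, beside 0.0205% of all tested genes. Both N2 and both double mutant libraries exceeded that share, both lin-61 libraries did not, and the hpl-2 pair was split. The term was estimated within the hpl-2 and triple mutant pairs alone, and triple mutant replicate 2 exceeded that share. The interaction and this split of the libraries thus largely coincide.

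**Figure D5:**
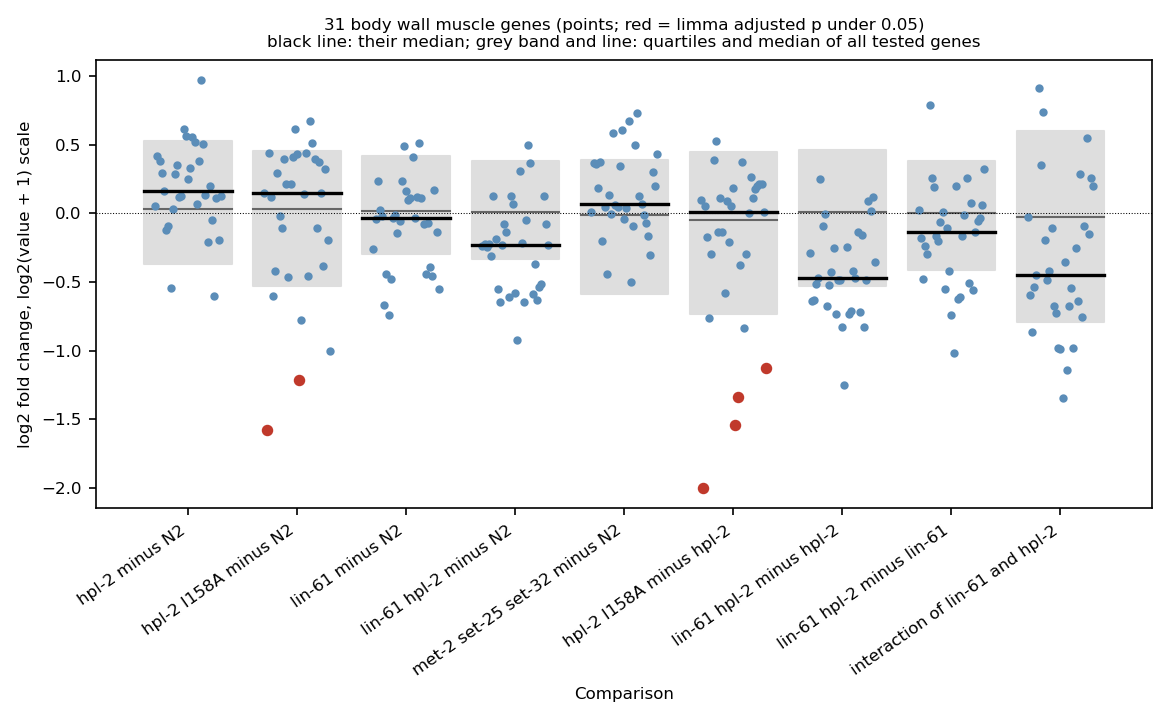
Log2 fold changes of the 31 body wall muscle genes (points) in each comparison, with their median (black line) and the median and quartiles of all tested genes (grey line and band). Red points passed the limma test, 2 in hpl-2 I158A minus N2 and 4 in hpl-2 I158A minus hpl-2. The median of the 31 is furthest below 0 in double mutant minus hpl-2 and in the interaction.

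In hpl-2, lin-61 and the triple mutant no muscle gene passed against N2 with all libraries. In hpl-2, 0 of 31 passed (0.608% of all tested genes), 3 had an unadjusted p under 0.05 (14.98%), and edgeR and DESeq2 called 0. pat-10, troponin C, stood at 145 and 221 for N2, 359.7 and 342 for hpl-2, 265 and 307 for hpl-2 I158A, 250.2 and 259.9 for lin-61, 280.5 and 229 for the double mutant and 227 and 386 for the triple mutant, and was higher in both hpl-2 libraries than in N2 (log2 fold change 0.97, SE 0.28, limma adjusted p = 0.146). act-4 stood at 1979.7 and 2737 for N2, 1554 and 1632 for hpl-2, 2369.7 and 2222 for hpl-2 I158A, 1425 and 1357 for lin-61, 1542 and 1639 for the double mutant and 1556 and 1876 for the triple mutant. Its N2 libraries were higher than those of hpl-2, and hpl-2 I158A overlapped N2 (log2 fold change -0.55, SE 0.19, limma adjusted p = 0.204). pat-4 stood at 266 and 232 for N2, 181 and 147 for hpl-2, 193 and 186 for hpl-2 I158A, 179.7 and 181 for lin-61, 178 and 169 for the double mutant and 172 and 234.7 for the triple mutant, with both hpl-2 libraries below both of N2 (log2 fold change -0.60, SE 0.22, limma adjusted p = 0.225). Both libraries were higher than N2 for 11 genes (35.5%, beside 27.5%) and lower for 4 (12.9%, beside 28.1%). The median of 0.16 (0.03 over all tested genes) became -0.0042 without N2 replicate 1 and 0.40 without N2 replicate 2, so the N2 pair decides its size and sign.

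In lin-61, 0 of 31 passed (0.0956%), 1 had an unadjusted p under 0.05 (9.50%), and edgeR and DESeq2 called 0. act-4 was lower than in N2 (log2 fold change -0.74, SE 0.19, limma adjusted p = 0.228), pat-2 was at -0.55 (limma adjusted p = 0.527) and pat-4 at -0.46 (limma adjusted p = 0.545). Both libraries were lower for 8 genes (25.8%, beside 24.3%) and higher for 3 (9.68%, beside 24.4%), and the median was -0.03. In the triple mutant, 0 of 31 passed (0.328%), 3 had an unadjusted p under 0.05 (14.97%), and edgeR and DESeq2 called 0. The 3 were pat-10 (log2 fold change 0.73, limma adjusted p = 0.279), act-4 (-0.45, limma adjusted p = 0.311) and pat-6, which stood at 91.9 and 93.8 for N2, 131 and 143 for hpl-2, 144 and 141 for hpl-2 I158A, 131 and 131 for lin-61, 91.4 and 104.1 for the double mutant and 109 and 185 for the triple mutant (0.61, limma adjusted p = 0.314). Both libraries were higher for 4 genes (12.9%, beside 16.4%) and lower for 2 (6.45%, beside 14.6%), the fewest separated genes of the comparisons with N2.

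Without triple mutant replicate 2, 6 of 31 genes passed in hpl-2 against N2 (19.4%, beside 14.5% of all tested genes). pat-10 (limma adjusted p = 0.00381), unc-87, pat-6 and hlh-1 rose and act-4 (limma adjusted p = 0.0135) and pat-4 fell. In lin-61 only act-4 passed (3.23%, beside 6.23%; limma adjusted p = 0.00435), and in the triple mutant, then with 1 library that is assumed to vary like the other genotypes, only unc-87 (3.23%, beside 3.47%; log2 fold change 0.72, limma adjusted p = 0.048). unc-87 stood at 488 and 213 in the triple mutant and at 349 and 251 in N2, so the library left out was the lowest of the 4. Without replicate 1 instead, 11 genes passed in the triple mutant (35.5%, beside 35.9%), so the count there depends on which library is left out. All comparisons with N2 share the 2 N2 libraries.

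A wider set of 72 muscle genes (other sarcomere, attachment, excitation, basement membrane and transcription genes), of which 70 could be tested, was measured beside them. With all 12 libraries, 4 of the 70 fell in hpl-2 I158A against N2 and none rose (5.71%, beside 4.003% of all tested genes). unc-105, a degenerin channel, was at 533 and 474 for N2, 475 and 454 for hpl-2 and 88.6 and 82.5 for hpl-2 I158A (log2 fold change -2.54, SE 0.55, limma adjusted p = 0.0341). The other 3 were lam-3, a laminin alpha chain (-1.60, limma adjusted p = 0.0136), ttn-1, a titin-like protein (-1.42, limma adjusted p = 0.0142), and unc-82, a kinase needed for thick filament order (-1.20, limma adjusted p = 0.0434). Both hpl-2 I158A libraries lay below both N2 libraries for each of the 4. Against hpl-2, 9 fell and 2 rose (15.7%, beside 7.84%). itr-1, the inositol trisphosphate receptor, a calcium release channel like unc-68, was at 51.4 and 73.1 for N2, 88.5 and 78.8 for hpl-2 and 6.74 and 22.4 for hpl-2 I158A (log2 fold change -2.65, SE 0.62, limma adjusted p = 0.032). unc-105 was at -2.43 (limma adjusted p = 0.0299). ric-3, a chaperone of acetylcholine receptors, was at -1.65 (limma adjusted p = 0.0241), unc-82 at -1.45 (limma adjusted p = 0.0196) and lam-3 at -1.32 (limma adjusted p = 0.021). The calcium pump gene sca-1 and the actin gene act-2 were the 2 that rose, and were named after their values were seen. Without triple mutant replicate 2, more of the wider set passed in both comparisons, most of them lower and some higher. The shares were then close to those of all tested genes.

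The wider set in the double mutant also had more genes below hpl-2 than above. Both libraries lay below both hpl-2 libraries for 38 of 70 genes (54.3%, beside 31.1%) and above for 9 (12.9%, beside 33.1%). The median was -0.33, beside 0.01 over all tested genes. By limma 0 passed against hpl-2 (0.130% of all tested genes), and 20 had an unadjusted p under 0.05 (18.5% of all tested genes). edgeR called 0 and DESeq2 called 4 (5.71%, beside 2.93% of all tested genes). Without triple mutant replicate 2, some genes of the wider set passed, most of them lower, at a share above that of all tested genes. In the interaction 2 of 70 passed (2.86%, beside 1.73%), both below 0. Without triple mutant replicate 2, the share that passed in the interaction was below that of all tested genes, and some were above 0. With the term for mitochondrial share 0 of 70 passed, beside 0.0205% of all tested genes. unc-23, a co-chaperone of the BAG family, stood at 196 and 155 for N2, 378 and 341 for hpl-2, 269.7 and 231 for hpl-2 I158A, 291 and 331 for lin-61, 204 and 158.4 for the double mutant and 186 and 110.1 for the triple mutant (log2 estimate -1.82, limma adjusted p = 0.0432). alp-1, a PDZ and LIM domain protein of dense bodies and the nucleus, stood at 173 and 214 for N2, 285 and 302 for hpl-2, 282 and 277 for hpl-2 I158A, 292 and 358 for lin-61, 141 and 173 for the double mutant and 189.8 and 275 for the triple mutant (log2 estimate -1.65, limma adjusted p = 0.0408). For both genes, every library of the single mutants was above every library of N2 and of the double mutant.

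Among coding genes outside both sets, those whose log2 values followed the mean of the 31 most closely over the 12 libraries were T16G12.1 (Pearson r 0.944), sad-1 (0.940), ilcr-1 (0.938), K09F5.6 (0.934) and T06A4.3 (0.933), out of 11450. sad-1, which encodes a kinase of neuronal polarity, stood at 56.1 and 126 for N2, 104.7 and 106 for hpl-2, 79.0 and 69.3 for hpl-2 I158A, 79.6 and 80.0 for lin-61, 56.8 and 56.6 for the double mutant and 77.6 and 111 for the triple mutant. These genes share the N2 gap, the low double mutant pair and the high values of triple mutant replicate 2 with the muscle genes. They also share library depth and scaling, so the likeness is a description.

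The authors' deposited table, in which the fold changes were turned to mutant over reference, calls more of the 31 genes at its adjusted p under 0.05. In the authors' deposited table, fold changes below 0 were called for 6 genes in hpl-2 I158A against hpl-2, the 4 above with unc-89 and unc-112 (11.2% of all genes with a value). The authors' deposited table has 3 lower against N2, unc-68, egl-19 and pat-2 (8.001%). For the double mutant against hpl-2, the authors' deposited table calls lev-11, deb-1, unc-52 and egl-19 lower (5.61%). pat-10 was called higher in hpl-2 (4.29%) and act-4 lower in lin-61 (1.58%) against N2 in the authors' deposited table, and no muscle gene was called there for the double mutant or the triple mutant against N2 or for the double mutant against lin-61.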

How the data were processed

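The deposited table holds normalised counts per gene (signal), which the authors made by dividing read counts by a factor per library; STAR, featureCounts, DESeq2 and the builds WBcel235 and ce11 are named in the submitters' processing notes, while the sources used here give neither versions nor the strand setting. Each value was a whole number of reads times 1 constant per library (100% of values, tolerance 1e-06), from 1.56 in N2 replicate 1 to 0.222 in the second library of met-2 set-25 set-32, so 1 read is the finest step that low genes allow. The second deposited table gives the authors' adjusted p-value and log2 fold change per comparison, coded per the file headers as the first genotype over the second; the sign was turned here. Names and coordinates were taken from Ensembl's WBcel235 annotation, where 46817 identifiers matched and 87 did not.

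Genotypes were compared with limma 3.58.1 in R 4.3.3 (trended variance) on log2(value + 1), with genotype as the only term and all 12 libraries (6 residual degrees of freedom), for genes with at least 10 in at least 2 libraries, and p-values were adjusted by Benjamini-Hochberg over all 14640. The pseudocount understates changes of low genes. Alternatives were TMM scaling, pseudocounts of 0.5 and 5, no filter or a filter in 4 libraries, edgeR 4.0.16 and DESeq2 1.42.0 on the recovered reads, only the genotypes compared, a replicate block, a term for mitochondrial share and leaving out each library. The steps were run on simulated counts with a common dispersion for all genes and libraries. That run does not cover pairs of unequal spread, such as the N2 and triple mutant pairs here. Genes named are those that passed, or the 3 with the smallest p where none did; of the wider set, up to 5 that passed, by size; and the 5 coding genes that follow the mean of the 31 most closely. The members and lists were chosen with earlier results of these data known.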

Additional observations from a re-analysis of the deposited data

How the results depend on the processing

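For the genes named by the rule, in the comparison that named them, no direction reversed under the alternatives run. unc-87 in the triple mutant, named only without replicate 2, is not covered by that statement. Counts of muscle genes that passed moved as follows, with the share of all tested genes in parentheses. In hpl-2 I158A against N2 the count of 2 became 1 with TMM scaling (4.01%), with no filter (0.788%) and with edgeR (2.47%), 3 with DESeq2 (6.13%) or the filter in 4 libraries (4.59%), 4 with only the genotypes compared (15.5%) and 0 with the mitochondrial term (1.69%). Against hpl-2 the count of 4 became 2 with no filter (1.48%) and 13 with only the genotypes compared, 41.9% of the 31 beside 47.05% of all tested genes. For lin-61 hpl-2 against hpl-2 the count of 0 became 2 with DESeq2 (2.93%) and 15 with only the genotypes compared, 48.4% beside 25.97%. With only the genotypes compared it became 8 against lin-61, 25.8% beside 15.3%, and 8 in the interaction, 25.8% beside 18.2%. Over all 6 genotypes the count of 3 became 1 with no filter (1.47%) and 10 with DESeq2, 32.3% beside 17.7%. When each library was left out in turn, the counts against N2 ranged from 0 to 6 in hpl-2 (8 to 2140 over all tested genes), 0 to 10 in hpl-2 I158A (5 to 3236), 0 to 1 in lin-61 (4 to 920), 0 to 6 in lin-61 hpl-2 (8 to 766) and 0 to 11 in the triple mutant (23 to 5206). They ranged from 0 to 8 in hpl-2 I158A against hpl-2 (2 to 4380), 0 to 12 and 0 to 5 in lin-61 hpl-2 against hpl-2 (1 to 2871) and lin-61 (0 to 1402), 0 to 9 in the interaction (3 to 2957) and 0 to 23 over all genotypes (64 to 8714). The highest counts came without a met-2 set-25 set-32 library. An arm with 1 library left was assumed to vary like the other genotypes.

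The median log2 fold change of the 31 ranged from -0.0042 to 0.40 in hpl-2, -0.035 to 0.21 in hpl-2 I158A, -0.25 to 0.15 in lin-61, -0.42 to -0.078 in lin-61 hpl-2 and -0.082 to 0.32 in the triple mutant against N2 when libraries were left out. It ranged from -0.028 to 0.037 in hpl-2 I158A against hpl-2, -0.50 to -0.37 and -0.20 to -0.089 in lin-61 hpl-2 against hpl-2 and lin-61, and -0.65 to -0.20 in the interaction. With replicate number as a block, 2 and 4 genes passed in hpl-2 I158A against N2 and hpl-2, as without it, and 0 in the other comparisons of 2 genotypes. Replicate numbers did not pair the libraries: 1 of 15 correlations of deviations between genotypes exceeded 0.1 (-0.0772 to 0.156).

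unc-68 passed against N2 in 17 of 22 alternatives and against hpl-2 in 18. egl-19 passed against N2 in 8 of 22 and against hpl-2 in 18, pat-2 against hpl-2 in 15 and unc-22 in 13. The cause of these changes was not tested. Low depth limits unc-96, unc-98, ZK617.19 and itr-1 most.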
